A study of Homo sapiens with 12 samples.

Results

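The response of A549 cells carrying a control hairpin to ionizing radiation was described from 6 of the 12 libraries of the study, 3 labelled irradiated and 3 labelled sham irradiation, chosen by their labels alone. A549 is an established human line from a lung adenocarcinoma, used as a model of non-small cell lung cancer. In the study, cells stably transfected with a control hairpin (shControl) or with a hairpin against the bile acid receptor FXR were either irradiated or sham treated, with 3 biological replicates in each of the 4 groups, and polyadenylated RNA was sequenced. The irradiated shControl cells were harvested 3 days after radiation, and both shControl groups carry the hairpin and are labelled as wild type in genotype. The sources used here do not give the radiation dose, the time at which sham cells were harvested, or whether each hairpin line is a pool or 1 clone. FXR is the product of NR1H4, which was at 24.7, 22.7 and 21.9 CPM (counts-per-million units) in the sham libraries and at 21.6, 22.7 and 28.3 CPM in the irradiated ones (edgeR adjusted p = 0.80).

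Ionizing radiation breaks DNA, and the damage kinases that sense the breaks stabilise the transcription factor p53, which induces cell cycle inhibitors and repair genes while proliferation genes are repressed. Irradiated epithelial and tumour cells are also known to alter secreted proteins: the acute phase proteins, made mostly by liver under inflammatory cytokines but also by lung epithelium, the cytokines and interferon-induced proteins, and the proteins and proteases of the extracellular matrix. Genes induced by low oxygen are driven by hypoxia-inducible factors, which bind short DNA elements with the core letters ACGTG, and several long noncoding RNAs are direct targets of p53.

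The promoters printed here belong to 4 transcripts of the hypoxia and glycolysis lists that fell after radiation and to LCN2, an acute phase gene that rose. Each run holds the 250 bases before the RefSeq transcription start on assembly GRCh38.p14, 5′ to 3′ on the gene's strand. In the first 4, capitals mark ACGTG or its reverse complement, the core of the hypoxia response element.
CA9 (chr9:35673678-35673927, plus strand): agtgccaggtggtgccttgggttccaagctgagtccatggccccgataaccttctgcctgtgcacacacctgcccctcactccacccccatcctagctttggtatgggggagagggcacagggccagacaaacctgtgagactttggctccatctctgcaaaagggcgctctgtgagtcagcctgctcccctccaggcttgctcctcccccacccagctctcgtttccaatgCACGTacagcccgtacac
MIR210HG (chr11:568458-568707, minus strand): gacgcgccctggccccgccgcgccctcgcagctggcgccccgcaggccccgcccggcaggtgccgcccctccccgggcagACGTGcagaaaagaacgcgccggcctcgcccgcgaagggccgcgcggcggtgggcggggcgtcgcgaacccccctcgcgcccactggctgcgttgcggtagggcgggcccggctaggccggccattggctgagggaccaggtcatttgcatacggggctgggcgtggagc
ALDOC (chr17:28576896-28577145, minus strand): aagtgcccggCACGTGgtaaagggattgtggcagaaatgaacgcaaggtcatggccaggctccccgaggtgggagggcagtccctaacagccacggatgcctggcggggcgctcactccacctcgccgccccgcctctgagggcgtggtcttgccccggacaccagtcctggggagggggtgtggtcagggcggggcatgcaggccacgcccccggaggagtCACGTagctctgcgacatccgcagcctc
ENO2 (chr12:6914330-6914579, plus strand): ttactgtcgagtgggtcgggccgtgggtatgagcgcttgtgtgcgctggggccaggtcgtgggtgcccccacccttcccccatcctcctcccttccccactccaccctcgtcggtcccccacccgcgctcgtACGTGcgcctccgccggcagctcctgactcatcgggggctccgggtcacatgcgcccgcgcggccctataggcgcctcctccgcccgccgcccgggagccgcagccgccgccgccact
In LCN2, capitals mark an NF-kB-type match (GGG and CC with 5 bases between them, present on both strands at overlapping positions) and a TTGCNNAA match (C/EBP-type).
LCN2 (chr9:128149203-128149452, plus strand): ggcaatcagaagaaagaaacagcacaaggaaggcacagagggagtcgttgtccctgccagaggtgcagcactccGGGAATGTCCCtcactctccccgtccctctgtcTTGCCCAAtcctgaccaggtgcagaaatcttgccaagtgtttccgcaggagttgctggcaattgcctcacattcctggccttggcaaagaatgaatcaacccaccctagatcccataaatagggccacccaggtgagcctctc
The ACGTG core starts 18 bases before the transcription start in CA9, 118 in ENO2 and 170 in MIR210HG, and ALDOC holds it in an overlapping pair of matches 240 and 239 bases before the start and again 28 bases before it.
Both strands of the window from 250 bases before to 50 after each start were searched: ACGTG was in 5900 of all 27305 promoters of the table (21.6%) and in 17 of the 30 tested hypoxia-induced genes that had an entry (56.7%). The TTGCNNAA letters were in 10.6% of all promoters and in 5 of the 9 tested acute phase proteins with an entry, while the NF-kB-type letters were in 58.0% of all promoters and in 5 of those 9. These are matches of letters and show no binding.

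Between 17824020 and 19036159 counts were assigned to genes in each of the 6 libraries, of which 12.9 to 16.8% fell on mitochondrial transcripts. The first principal component, 47.5% of the variance of log2 CPM, placed the sham libraries between -20.6 and -6.68 and the irradiated libraries between 9.28 and 14.7. Sham library 2 stood apart from the other sham libraries (chi-square per degree of freedom of 25.8 and 22.3 against them, 7.42 between the other pair), and irradiated library 3 differed from irradiated library 1 by 16.2. Library weights estimated by limma from the spread were lowest for these, 0.304 and 0.693, and highest, 3.25, for irradiated library 2. Epithelial keratins were abundant (KRT8 from 3521 to 5953 CPM), while the surfactant regulator NKX2-1 did not exceed 0.426 CPM. The 25 lung epithelial markers, mostly KRT8, KRT18 and KRT7, summed to 6959 to 8598 CPM in sham and 8792 to 10208 CPM in irradiated libraries. The list did not move as a whole: of its 16 members with enough counts to be tested, 8 had positive and 8 negative log2 fold changes, with a median of -0.05. The 9 fibroblast markers summed to 36.1 to 46.9 and 32.5 to 39.2 CPM, the 8 leukocyte markers, mostly CD14, to 35.8 to 57.8 and 23.2 to 48.4 CPM, the 6 endothelial markers to 1.28 to 3.82 and 1.68 to 2.02 CPM, and the 7 hepatocyte markers, mostly CPS1, to 78.5 to 96.9 and 81.1 to 84.1 CPM. COL1A2, CD3E, VWF and APOA2, 1 member of each of those other lists, had 0 counts in all 6 libraries. This allows up to 0.158 to 0.168 CPM per library. They were the only members of these lists without any count, and others were detected. DCN and THY1, fibroblast markers, were at 9.40 to 14.6 and 9.71 to 11.8 CPM over the 6 libraries. ITGAM, a leukocyte marker, was at 1.21 to 3.08 CPM, and PECAM1, an endothelial marker, at 0.533 to 2.97 CPM. In bulk RNA, fewer cells of a state and less RNA per cell cannot be told apart.

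Radiation changed 551 of 15404 tested genes at an adjusted p under 0.05 (edgeR quasi-likelihood test, Benjamini-Hochberg), which is 3.58% of them. Of these, 252 were higher (1.64%) and 299 were lower (1.94%). At least 2-fold changes numbered 44 upward and 91 downward. A gene that passed this test is described as called. The median log2 fold change of all tested genes was -0.0036. The number of calls leaned on single libraries: it was 145 without irradiated library 2 and 243 without irradiated library 3, against 417 to 743 when any of the other 4 was left out, and 322 without the pair of lowest weight. The count of rises also dropped to 155 without sham library 1 and that of falls to 192 without sham library 2. A fit over all 12 libraries, which borrows the spread of the shFXR groups, called 1611 of 16053 genes (10%), 548 of the 551 among them.

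**Figure D1:**
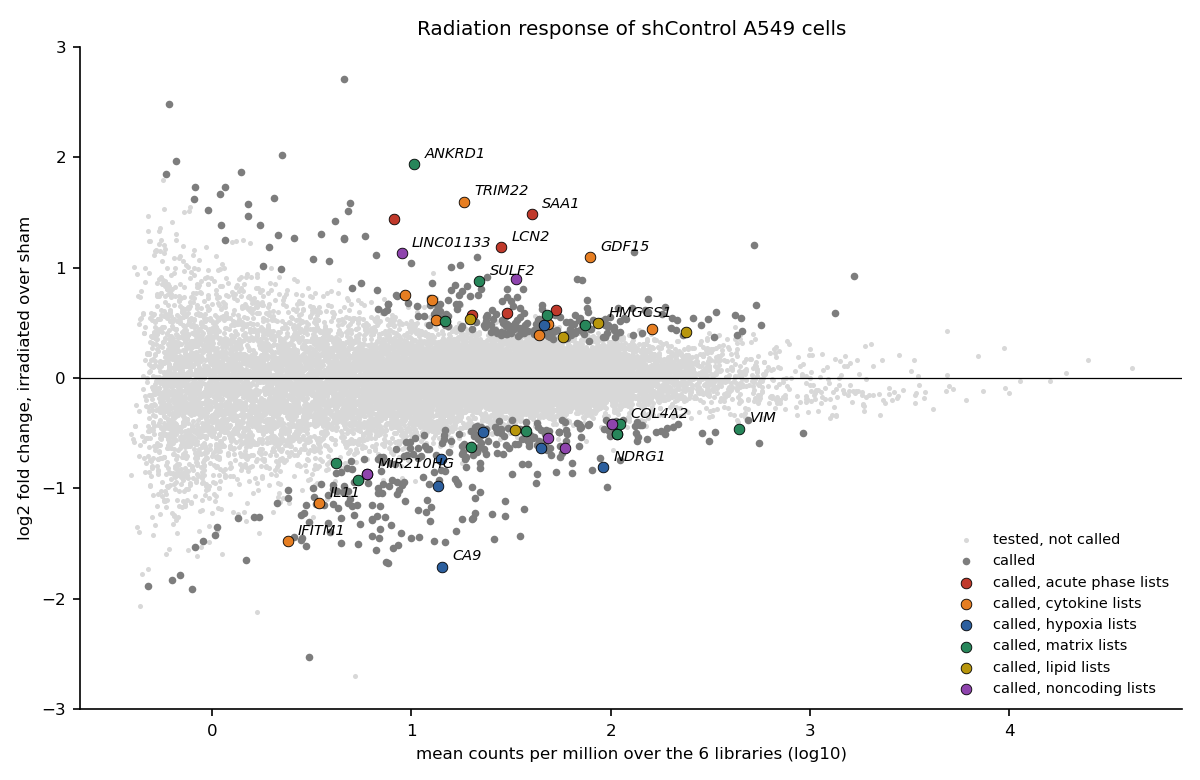
Log2 fold change after radiation (vertical axis) against the mean CPM of the 6 shControl libraries on a log10 scale (horizontal axis), 1 point per tested gene. Called genes are dark grey or, for the 6 groups of lists, coloured; ANKRD1, TRIM22 and SAA1 lie at 1.94, 1.60 and 1.49, and CA9 lies at -1.71.

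The p53 and cell division programmes set the scale for the rest. Of 40 tested p53 targets 25 were called, all higher, with a list median of 0.54 on the log2 scale. CDKN1A, which encodes the cyclin-dependent kinase inhibitor p21, was at 317, 312 and 318 CPM in sham and 748, 764 and 680 CPM in irradiated libraries, a log2 fold change of 1.21 ± 0.09 (SE, adjusted p = 7.97e-06), and MDM2, the ubiquitin ligase of p53, rose by 1.14 ± 0.09. Among 42 tested G2/M and mitosis genes 32 were called, all lower, with a median of -1.14, and among 39 DNA replication genes 13 were called, all lower. No member of the replication-dependent histone list (0 of 17) or of the immediate early list (0 of 17) was called by edgeR, beside 3.58% of all genes. At that share, lists of this size can be without a call. Of these histones and immediate early genes, 2 and 7 had an unadjusted p under 0.05 and DESeq2 called 0 and 1. Limma with library weights called 1 and 4, and the fit over all 12 libraries called 1 of each. The immediate early list leaves out NR4A2 and NR4A3, which were called lower and are given among the other observations. The libraries hold polyadenylated RNA, so histone transcripts without a poly(A) tail cannot be judged here. The 17 histones summed to 166, 187 and 156 CPM in sham and 174, 165 and 180 CPM in irradiated libraries. With the p53, cell division, histone and immediate early lists set aside, 481 called genes remained, 227 higher and 254 lower. Their median absolute change was 0.59, against 1.01 for the 70 called genes inside those lists.

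**Figure D2:**
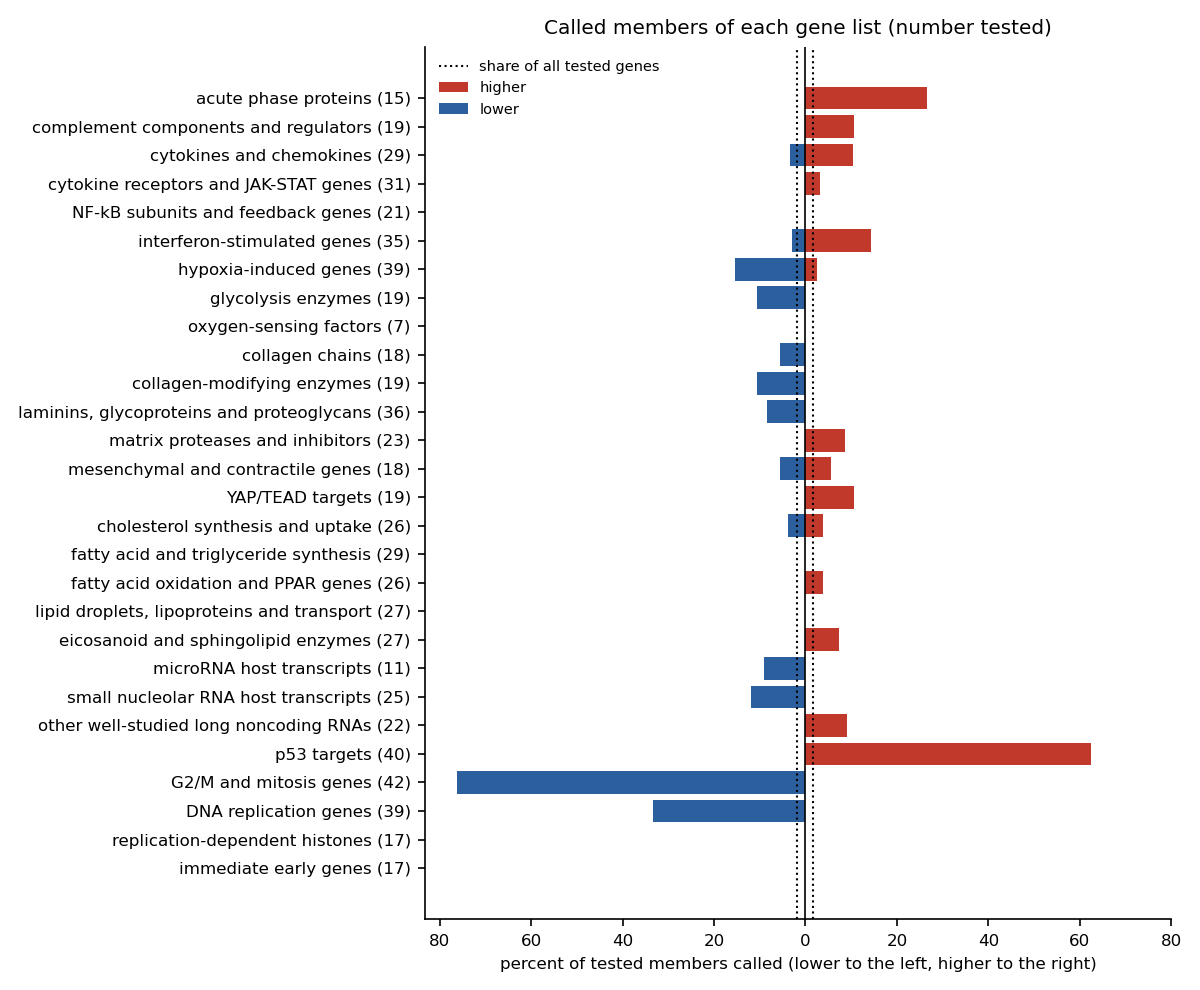
Percent of the tested members of each gene list called lower (blue, left) or higher (red, right), with the number tested in brackets. Dotted lines give the shares over all tested genes, 1.64% higher and 1.94% lower; acute phase and interferon-stimulated bars lie mostly to the right and the hypoxia-induced, glycolysis and small nucleolar RNA host bars mostly or wholly to the left.

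A minority of acute phase genes rose. Of 34 tested acute phase and complement genes 6 were called, all of them higher, which is 17.6% of the members beside 1.64% of all genes called higher, and the list median was 0.18. The 15 tested acute phase proteins summed to 2906, 2023 and 1953 CPM in sham and 2790, 2262 and 2293 CPM in irradiated libraries, so that the sum did not separate the groups and was highest in sham library 1. The leading members encode secreted defence proteins. SAA1, serum amyloid A1, an acute phase apolipoprotein, was at 20.4, 22 and 21 CPM in the sham libraries and at 44.3, 69.4 and 64.0 CPM in the irradiated libraries. All 3 irradiated libraries exceeded every sham library, and irradiated library 1 was the lowest of them. The log2 fold change was 1.49 ± 0.14 (SE, adjusted p = 5.56e-05). SAA2, its near-identical neighbour on chromosome 11, went from 3.40, 4.42 and 5.30 to 8.87, 15.3 and 11.6 CPM, a log2 fold change of 1.44 ± 0.21. The 2 genes cannot be fully separated by short reads, since 402 of the 862 stretches of 50 bases in SAA1 transcripts (46.6%) also occur in SAA2 transcripts. LCN2, lipocalin 2, which withholds iron siderophores from bacteria, was at 18.0, 19.9 and 14.0 CPM in sham and 36.1, 43.6 and 38.3 CPM in irradiated libraries, a change of 1.19 ± 0.13 (adjusted p = 0.000202).

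The called complement and adhesion members changed less. C5, the precursor of the complement anaphylatoxin C5a, was at 47.4, 33.4 and 44.7 CPM in sham and 60.8, 69.5 and 62.7 CPM in irradiated libraries (0.62 ± 0.12, adjusted p = 0.00983). C4BPA, an inhibitor of complement C4b, changed by 0.59 ± 0.14 and VTN, vitronectin, by 0.57 ± 0.12. The most abundant members did not pass: C3, the central complement component, was at 1144, 1049 and 984 CPM in sham and at 1324, 1326 and 1048 CPM in irradiated libraries (0.22 ± 0.11, adjusted p = 0.31), with irradiated library 3 inside the sham range. FGB, the fibrinogen beta chain, was at 614, 473 and 441 CPM and at 608, 496 and 560 CPM (0.12 ± 0.12, adjusted p = 0.62). SAA1, SAA2 and LCN2 kept their calls whichever library was left out, and the other 3 called members lost theirs in at least 1 case, with the highest adjusted p between 0.091 and 0.13. Called members numbered 3 without irradiated library 2 and 10 without irradiated library 1. The summed hepatocyte markers of the irradiated libraries, mostly CPS1 (81.1 to 84.1 CPM), lay inside the sham range. The summed leukocyte markers, mostly CD14 (23.2 to 48.4 CPM), did not exceed the sham maximum. Sums led by a single gene say little about cell types, and a part of other cells in these rises was not tested.

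**Figure D3:**
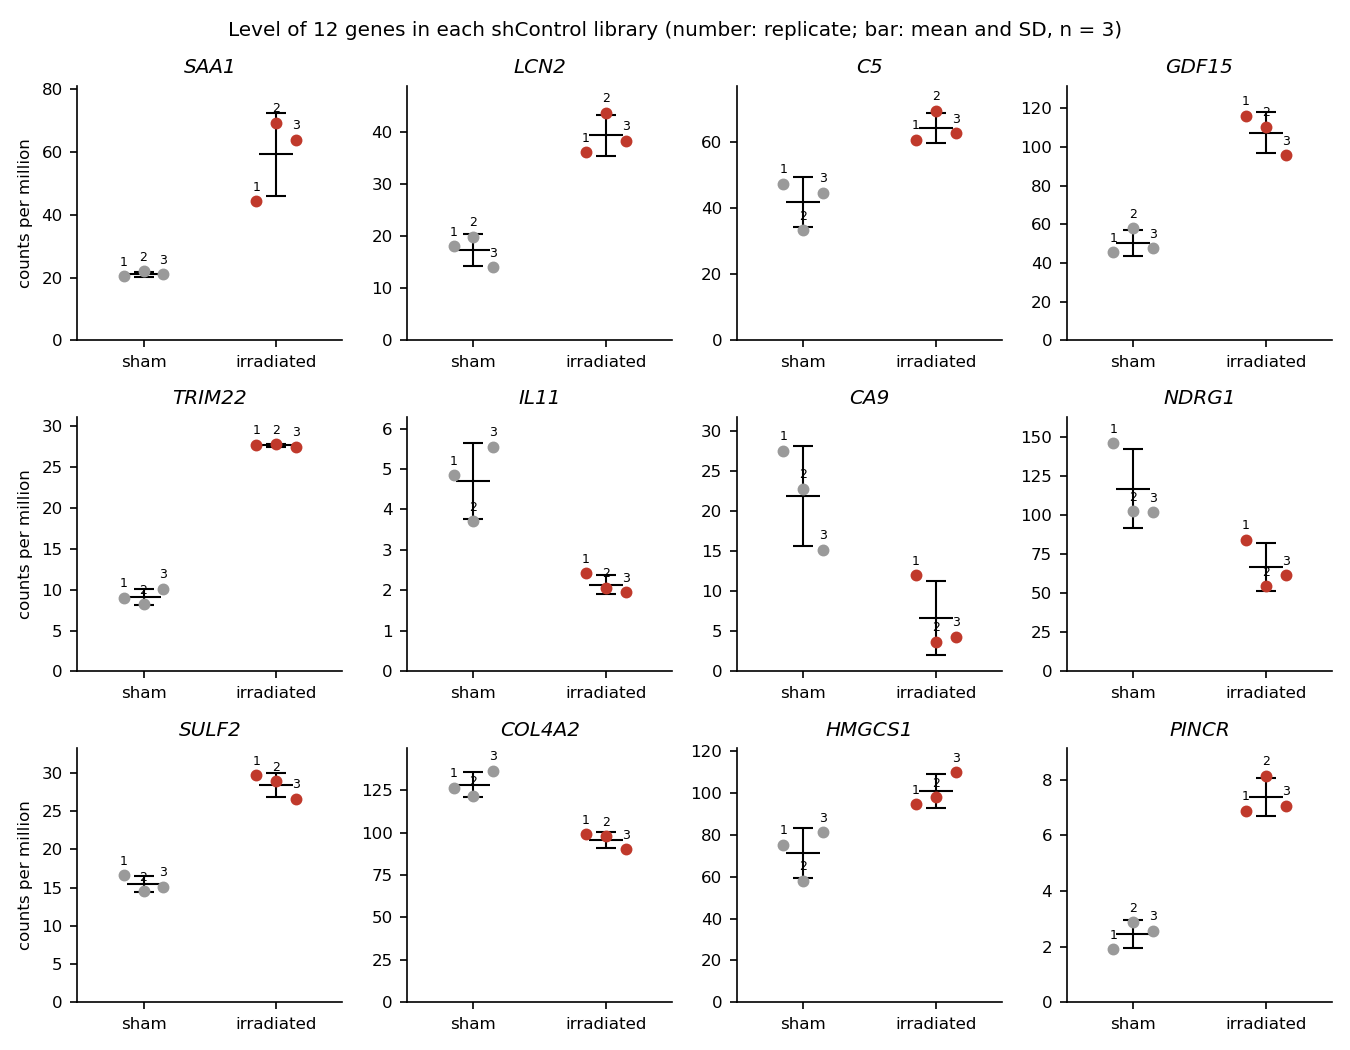
CPM of 12 genes in each of the 3 sham (grey) and 3 irradiated (red) libraries, numbered by replicate; bars are mean ± SD. The groups do not overlap in any panel, and TRIM22 is between 27.5 and 27.8 CPM in the irradiated libraries while CA9 is between 3.68 and 12.0 CPM.

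Called cytokine and interferon genes moved in both directions. Of 115 tested cytokines, receptors, NF-kB components and interferon-stimulated genes 10 were called (8.70%, beside 3.58% of all genes), 8 higher and 2 lower, with a median of 0.09. GDF15, a stress cytokine of the TGF-beta family that is also a p53 target, was at 45.6, 57.9 and 47.8 CPM in sham and 116, 111 and 95.7 CPM in irradiated libraries (1.09 ± 0.11, adjusted p = 0.000103). CCL2, which attracts monocytes, was at 35.9, 47.3 and 37.4 CPM and at 57.1, 50.7 and 61.3 CPM (0.49 ± 0.12, adjusted p = 0.030). LIF, an IL6-family cytokine, changed by 0.39 ± 0.09. In the other direction, IL11, another member of that family, was at 4.85, 3.71 and 5.55 CPM in sham and 2.42, 2.07 and 1.95 CPM in irradiated libraries, so that all irradiated values were below all sham values (-1.13 ± 0.23, adjusted p = 0.0116).

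Other inflammatory cytokines had positive estimates that missed the threshold. CXCL8, the neutrophil attractant interleukin 8, was at 195, 123 and 179 CPM in sham and 266, 215 and 206 CPM in irradiated libraries (0.47 ± 0.14, adjusted p = 0.088, or 0.030 in the fit over all 12 libraries), and IL6 had overlapping groups (0.43 ± 0.20, adjusted p = 0.26). None of 21 NF-kB subunits and feedback genes was called by edgeR, beside 3.58% of all genes, a share at which a list of 21 can be without a call. Of the 21, 3 had an unadjusted p under 0.05, DESeq2 called 0, limma with library weights 4 and the fit over all 12 libraries 2. The member with the smallest adjusted p was BIRC3, an apoptosis inhibitor induced by NF-kB (0.45 ± 0.15, adjusted p = 0.107), and NFKBIA, the inhibitor of NF-kB, had -0.27 ± 0.10 (adjusted p = 0.16).

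Of 35 tested interferon-stimulated genes 6 were called, 5 of them higher, beside 1.64% of all genes called higher, with a list median of 0.24. TRIM22, an antiviral ubiquitin ligase that is induced by interferons and by p53, was at 9.02, 8.19 and 10.1 CPM in the sham libraries and at 27.7, 27.8 and 27.5 CPM in the irradiated ones. The rise was 1.60 ± 0.12 (adjusted p = 7.01e-06), and the 3 irradiated libraries differed by less than the sham libraries did. IFIT2, which binds viral RNA, changed by 0.75 ± 0.16 and SAMD9, an antiviral effector, by 0.71 ± 0.14. IFITM1, which restricts virus entry, went the other way at low level, from 5.72, 2.59 and 2.21 CPM to 1.88, 1.12 and 0.791 CPM (-1.48 ± 0.38, adjusted p = 0.044). GDF15 and TRIM22 kept their calls with every library left out in turn. The other 8 called members of the cytokine lists lost theirs at least once, with the highest adjusted p between 0.074 and 0.20, and the number of called members in these lists was 2 without irradiated library 2 as well as without irradiated library 3, against 16 without irradiated library 1.

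A minority of hypoxia-induced and glycolytic genes fell. Of 64 tested members 9 were called (14.1%), 8 lower and 1 higher, beside 1.94% of all genes called lower, and 49 of the 64 had negative estimates with a median of -0.12. By library, the median of the 39 hypoxia-induced genes relative to the sham mean was 0.06, -0.08 and -0.02 in sham and -0.04, -0.21 and -0.20 in irradiated libraries, so that irradiated library 1 lay within the sham range. CA9, carbonic anhydrase 9, a cell surface enzyme that exports acid from hypoxic cells and whose promoter is printed first, had the largest fall of the called protein-coding genes with a mean of at least 5 CPM, those of cell division included. It was at 27.5, 22.8 and 15.2 CPM in the sham libraries and at 12.0, 3.68 and 4.33 CPM in the irradiated libraries (-1.71 ± 0.32, adjusted p = 0.00701). The groups did not overlap, but irradiated library 1 stood close to sham library 3.

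NDRG1, a stress-responsive protein induced by low oxygen, was at 146, 103 and 102 CPM in sham and 84.2, 54.6 and 61.7 CPM in irradiated libraries (-0.81 ± 0.16, adjusted p = 0.00887). ALDOC and ENO2, the aldolase and enolase forms best known from nerve cells, changed by -0.98 ± 0.21 and -0.63 ± 0.15. MIR210HG, the host transcript of the hypoxia-induced microRNA miR-210, was at 9.18, 7.72 and 6.43 CPM and at 5.70, 4.07 and 2.95 CPM (-0.87 ± 0.23, adjusted p = 0.043). The mature microRNA itself is too short for these libraries, whose protocol selects much longer fragments, and is shown to identify the host transcript, with its seed (bases 2 to 8) in capitals.
hsa-miR-210-3p (chr11:568112-568133, minus strand): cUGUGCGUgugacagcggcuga

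ZNF395, a hypoxia-induced transcription factor, changed by -0.73 ± 0.13, LOXL2, a collagen cross-linking oxidase, by -0.51 ± 0.10, and SLC2A3, the glucose transporter GLUT3, by -0.49. The 1 member that rose was AK4, a mitochondrial adenylate kinase (0.48 ± 0.10, adjusted p = 0.016). Textbook hypoxia targets were not uniformly low: VEGFA, the vascular growth factor, was at 44.9, 40.5 and 48.0 CPM in sham and 48.3, 43.3 and 37.9 CPM in irradiated libraries (-0.04 ± 0.11), and ADM, adrenomedullin, had a positive estimate of 0.37 ± 0.10 (adjusted p = 0.056). HIF1A, the oxygen-regulated factor subunit, was at 1108 to 1362 CPM in sham and 1196 to 1283 CPM in irradiated libraries, a difference within the spread of the libraries (-0.01 ± 0.11). None of 7 oxygen-sensing factors was called by edgeR, beside 3.58% of all genes, a share at which a list of 7 can be without a call. Of the 7, 1 had an unadjusted p under 0.05, DESeq2 called 0, and limma with library weights and the fit over all 12 libraries called 1 each. The smallest edgeR adjusted p was 0.124 for HIF1AN, the asparagine hydroxylase of HIF. CA9 and ZNF395 kept their calls whichever library was left out, but DESeq2 did not call CA9 (adjusted p = 0.0502). The other 7 lost theirs at least once, with the highest adjusted p between 0.084 and 0.23, and the number of called members in these lists was 2 without irradiated library 2, without irradiated library 3, and without the pair of lowest weight, and 5 without sham library 1.

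Called matrix genes moved in both directions. Of 133 tested matrix and mesenchymal genes 12 were called (9.02%, beside 3.58% of all genes), 5 higher and 7 lower, with a median of -0.05. The falls were 1 of 18 collagen chains, 2 of 19 collagen-modifying enzymes, 3 of 36 laminins, glycoproteins and proteoglycans, and 1 of 18 mesenchymal and contractile genes. COL4A2, a chain of basement membrane collagen, was at 126, 122 and 136 CPM in sham and 99.0, 98.0 and 90.3 CPM in irradiated libraries (-0.42 ± 0.09, adjusted p = 0.018), and P4HA3, a collagen prolyl hydroxylase subunit, changed by -0.48 ± 0.10. NID1, nidogen, which links laminin and collagen in basement membranes, was at 5.88, 4.30 and 5.60 CPM and at 3.12, 3.18 and 2.95 CPM (-0.77 ± 0.20). The other falls were FBLN1, fibulin 1, with -0.63 ± 0.12, SPOCK1, a testican proteoglycan, with -0.93 ± 0.20, VIM, the intermediate filament protein vimentin, with -0.46 ± 0.11, and LOXL2, already given. FN1, fibronectin, ranged widely in both groups, at 3050, 1876 and 2559 CPM in sham and 2495, 1934 and 1516 CPM in irradiated libraries (-0.33 ± 0.18, adjusted p = 0.32).

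The members that rose remodel matrix or belong to the contractile and YAP/TEAD-target lists. SULF2, an extracellular sulfatase that edits heparan sulfate, was at 16.6, 14.6 and 15.1 CPM in sham and 29.7, 28.9 and 26.6 CPM in irradiated libraries (0.88 ± 0.11, adjusted p = 0.00057). MMP7, a matrix metalloproteinase of epithelial cells, changed by 0.57 ± 0.11 and ACTA2, smooth muscle actin, by 0.52 ± 0.12. ANKRD1, a YAP/TEAD target, had the largest rise of the called protein-coding genes with a mean of at least 5 CPM whose groups did not overlap: it was at 3.30, 4.83 and 4.73 CPM in sham and at 8.76, 20.1 and 20.4 CPM in irradiated libraries (1.94 ± 0.27, adjusted p = 0.001), with irradiated library 1 far below the other pair. AJUBA, a LIM protein of the same list, changed by 0.48 ± 0.12. The summed fibroblast markers of the irradiated libraries (32.5 to 39.2 CPM) did not exceed the sham maximum of 46.9 CPM. A part of other cells in the matrix changes was not tested. ANKRD1, MMP7 and SULF2 kept their calls whichever library was left out; the other 9 lost theirs at least once (highest adjusted p 0.058 to 0.25), and the number of called members in these lists was 3 without irradiated library 2, 6 without irradiated library 3 and 6 without sham library 3.

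Lipid genes were close to the background. Of 135 tested members 5 were called (3.70%, beside 3.58% of all genes), 4 higher and 1 lower. In the cholesterol list, 1 of 26 tested genes was called higher and 1 lower, and 15 had negative estimates, with a median of -0.02. The 1 called higher, HMGCS1, which makes the precursor of mevalonate, was at 75.2, 58.0 and 81.1 CPM in sham and 94.6, 98.0 and 110 CPM in irradiated libraries (0.50 ± 0.12, adjusted p = 0.029). The letters TCACNCCAC, a sterol regulatory element type, were in 1 of the 18 tested members of that list with a promoter entry and in 1.15% of all promoters. ASAH1 and SMPD1, lysosomal enzymes that release sphingosine and ceramide, changed by 0.42 ± 0.09 and 0.54 ± 0.12.

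Fatty acid synthesis showed no call. None of 29 fatty acid and triglyceride synthesis genes passed by edgeR, beside 3.58% of all genes, a share at which a list of 29 can be without a call. Of the 29, 6 had an unadjusted p under 0.05, DESeq2 called 0, and limma with library weights and the fit over all 12 libraries called 3 each. SCD, stearoyl-CoA desaturase, was at 1929, 1951 and 1889 CPM in sham and 1997, 1872 and 1849 CPM in irradiated libraries (-0.01 ± 0.10), and FASN, fatty acid synthase, had 0.09 ± 0.11. PLIN2, which coats lipid droplets, had -0.04 ± 0.11, and CPT1A, which admits fatty acids to mitochondria, had -0.23 ± 0.09 (adjusted p = 0.16). ABCA1, the cholesterol exporter, had the smallest adjusted p, 0.062, of the 27 droplet, lipoprotein and transport genes, with 0.47 ± 0.13. Of these 27 edgeR called 0, again beside 3.58% of all genes, and 7 were at an unadjusted p under 0.05. DESeq2 called 1 of the 27, limma with library weights 5 and the fit over all 12 libraries 2. All 5 calls of the lipid lists were lost, leaving 0, without irradiated library 2 or without irradiated library 3, and 3 lipid genes were called without sham library 3.

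Few noncoding transcripts were called. Of 1529 tested long noncoding genes 23 were called (1.5%), 13 higher and 10 lower, beside 521 of 13003 protein-coding genes (4.01%), and the median level was 1.43 CPM for the former and 22.7 CPM for the latter. The part of the level in this difference was not tested. Among the 23, 13 overlap a coding gene. Since no strand setting is given and the library protocol names no strand-marking step, reads of such pairs cannot be told apart. The 10 that overlap none comprise 7 that rose and 3 that fell.

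PINCR, a p53-induced noncoding RNA (chrX:43176994-43226598, plus strand), was at 1.91, 2.89 and 2.57 CPM in sham and 6.88, 8.15 and 7.07 CPM in irradiated libraries, with no gene overlapping it (1.59 ± 0.20, adjusted p = 0.000715). PURPL, another p53-regulated noncoding RNA, was at 24.3, 17 and 28.7 CPM and at 48.7, 44.0 and 38.4 CPM (0.90 ± 0.15, adjusted p = 0.00392). LINC01133 was at 5.62, 5.66 and 5.50 CPM in sham and 10.5, 13.8 and 12.5 CPM in irradiated libraries, so that the sham libraries were nearly equal and every irradiated library was higher (1.13 ± 0.16, adjusted p = 0.001). LINC00665 changed by 1.31 ± 0.23. GACAT2 (1.11 ± 0.17) lies opposite the coding gene MTCL1, which was not called.

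Some host transcripts of small nucleolar RNAs fell. Of 25 tested, 3 were called, all lower, beside 1.94% of all genes called lower, and 20 had negative estimates, with a median of -0.13. SNHG19 was at 72.0, 82.1 and 61.0 CPM in sham and 47.7, 42.7 and 48.3 CPM in irradiated libraries (-0.63 ± 0.11, adjusted p = 0.00535). SNHG3, which overlaps RCC1 on the same strand, changed by -0.55 ± 0.11, and SNHG7, opposite FAM69B, by -0.42 ± 0.10. AC099850.3 changed by -1.45 ± 0.29, but it lies opposite the called coding gene PRR11, which had -1.09. BX284668.5 had -1.02 ± 0.22. LINC01669 fell by 2.53 on the log2 scale (SE 0.60; DESeq2 adjusted p = 0.065), with sham library 2 at 11.7 CPM and the other sham libraries at 1.70 and 2.26 CPM, against 0.645, 0.781 and 1.21 CPM after radiation. Neither of the abundant nuclear RNAs was called: NEAT1 had -0.28 ± 0.16 and MALAT1 0.03 ± 0.18, each with its lowest value in irradiated library 3 (312 and 151 CPM). MIR34AHG, host of the p53-induced miR-34a, was at 9.44, 10.1 and 10.2 CPM in sham and 15.1, 9.77 and 9.60 CPM in irradiated libraries, high in irradiated library 1 alone (0.21 ± 0.17).

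Of 47 tested small noncoding genes 1 was called, MIR3189, named after its value was seen, and its call was lost whichever library was left out (adjusted p from 0.063 to 0.14). It lies inside the span of GDF15 on the same strand (chr19:18386562-18386634), and its counts were 8, 5 and 8 in sham and 37, 16 and 17 in irradiated libraries, where GDF15 itself had 885, 982 and 929 and then 2162, 1982 and 1814. Reads of GDF15 transcripts can fall on it. A mature product of the gene is shown with its seed in capitals.
hsa-miR-3189-3p (chr19:18386607-18386627, plus strand): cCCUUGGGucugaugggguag
In place of 24, the number of noncoding genes called was 7 without irradiated library 2, 12 without irradiated library 3 and 38 without irradiated library 1.

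Outside all lists, rises were ranked among called protein-coding genes with a mean of at least 5 CPM whose groups did not overlap. Some genes of lower level rose more. The largest rises so ranked included ALDH3A1, an aldehyde dehydrogenase abundant in A549, at 1219, 1176 and 1058 CPM in sham and 2466, 2250 and 1858 CPM in irradiated libraries (0.93 ± 0.12, adjusted p = 0.000715). PDZK1IP1, a small membrane protein of epithelia, changed by 0.92 ± 0.12, KLHDC7A by 1.28 ± 0.20 and KCNJ16, an inward rectifier potassium channel, by 0.86 ± 0.20. In the lung epithelial marker list, SFTPD, which encodes surfactant protein D, was at 1.55, 2.65 and 2.57 CPM and at 4.78, 5.80 and 7.55 CPM (1.42 ± 0.25, adjusted p = 0.00478). It was the only called member of the 16 tested (6.25%, beside 3.58% of all genes). Estimates in that list went both ways, 8 positive and 8 negative, with a median of -0.05. The named falls were mostly further genes of cell division: CIT, TROAP, IQGAP3, KIFC1, PBK, DEPDC1, GTSE1 and MYBL2 changed by -1.25 to -1.45, and NGEF, a guanine nucleotide exchange factor, by -1.28 ± 0.20.

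How evenly the replicates carried a change was measured for each gene by the deviation of each irradiated library from the mean of the 3 sham libraries on the log2 CPM scale. The change was called even where the smallest of the 3 deviations was at least 0.5 of the largest. Since the test itself favours changes that all libraries share, the values for called genes are a description. Of the 551 called genes 424 were even (77.0%), with 220 of 252 among those that rose (87.3%) and 204 of 299 among those that fell (68.2%), against 18.6% of all tested genes. The 2 groups did not overlap for 546 of the 551, beside 25.1% of all tested genes. Regardless of any test, 1121 genes differed by at least 1.5-fold (7.28% of those tested), of which 471 were even (42.0%), 226 of 415 upward (54.5%) and 245 of 706 downward (34.7%).

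**Figure D4:**
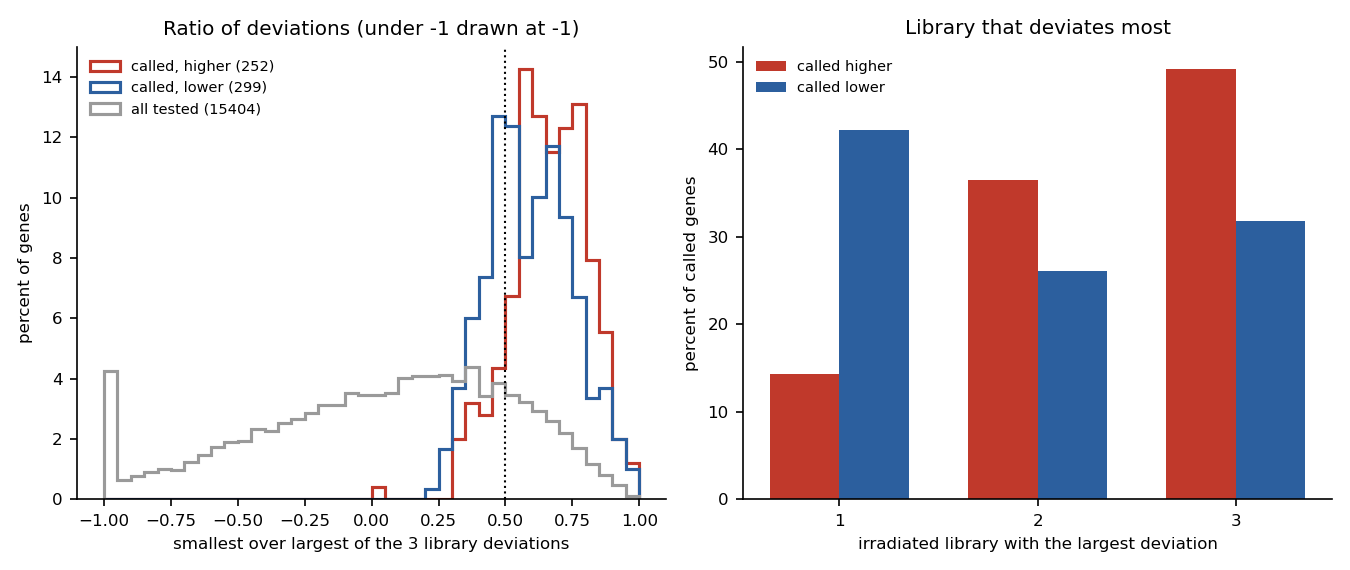
Left, the ratio of the smallest to the largest deviation of the 3 irradiated libraries, as percent of called higher (red), called lower (blue) and all tested genes (grey); the dotted line marks 0.5, the limit for an even change. Right, percent of called genes for which each irradiated library deviated most: library 3 leads among rises (49.2%) and library 1 among falls (42.1%).

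The irradiated library that deviated most was not the same in each gene group. Among called rises, irradiated library 1 deviated most in 14.3%, library 2 in 36.5% and library 3 in 49.2% of genes; among called falls these shares were 42.1%, 26.1% and 31.8%. The falls of cell division genes were deepest in irradiated library 1, where the median of the 42 mitosis genes lay 1.54 below the sham mean, followed by library 2 at -1.11 and library 3 at -0.76; library 1 deviated most for 26 of the 32 called members. For the called hypoxia genes irradiated library 1 was instead the least displaced: it had the smallest deviation for all 9 members, and 2 of these 9 were even. CA9, for example, had deviations of -0.82, -2.49 and -2.26, and ALDOC and ENO2 were among the 5 least even called genes of at least 5 CPM, with ratios of 0.28 and 0.31.

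Acute phase rises were even for 6 of 6 called genes, although irradiated library 1 was the smallest in 4. Sham library 1 was already high in the list of acute phase proteins (median deviation 0.28 above the sham mean) and low for mitosis genes (-0.33). In those lists it was displaced in the direction of the irradiated libraries, but not for p53 targets (-0.02) or hypoxia-induced genes (0.06). Cytokines and chemokines rose most in irradiated library 1 by list median (0.42, against 0.19 and 0.09), whereas the interferon-stimulated list lay at 0.23, 0.20 and 0.22. All 25 called p53 targets were even. The 5 most even called genes were TRIM22, the polymerase subunit POLD1, the centromere protein CENPH, the drug exporter ABCC2 and the growth factor PDGFD, with ratios from 0.96 to 0.99, and the least even beside ALDOC and ENO2 were NUF2 and CEP55, which act in mitosis, and the GTPase regulator SIPA1. At 2.71, the largest log2 rise of all called genes was that of SMIM11A, singled out after its values were seen, and it was carried by part of the libraries: 0.877, 1.24 and 1.49 CPM in sham and 10.2, 12.3 and 1.32 CPM in irradiated libraries.

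**Figure D5:**
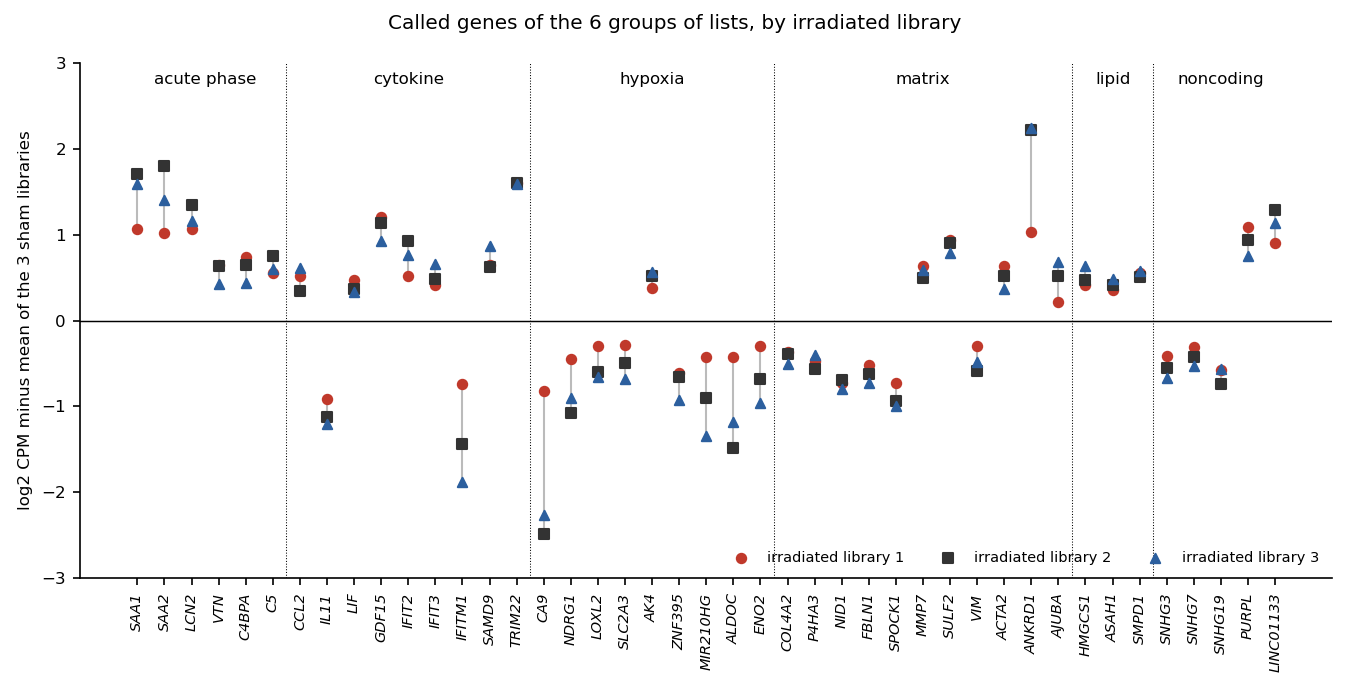
Deviation of each irradiated library from the mean of the 3 sham libraries (vertical axis, log2 CPM) for called genes of the 6 groups of lists that are reported here (horizontal axis); grey lines join the 3 libraries of a gene. Irradiated library 1 (red) lies nearest to 0 for all called hypoxia genes, whereas the 3 libraries coincide for TRIM22.

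A test of the difference between the shFXR and shControl responses, over all 12 libraries and so with the spread of both lines pooled, called 15% of 16053 genes. It called 14 of the 36 genes that were always given here, a set chosen with earlier results known.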

How the data were processed

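Libraries were made from poly(T)-selected RNA, per the labels' protocols, and the authors deposited 1 table of raw counts per gene for 58735 genes with identifiers, positions and biotypes. The submitters' processing notes name build hg38 and DESeq2 1.20.0; they do not name the aligner, the counter or its strand setting (not given in the sources used). All but 11 of the deposited positions equal those of GENCODE 29. Groups came from the sample titles. Counts of the 6 shControl libraries were filtered (edgeR filterByExpr, minimum count 10), scaled by TMM and tested with edgeR 4.0.16 quasi-likelihood in R 4.3.3, with Benjamini-Hochberg adjustment over 15404 genes and a threshold of 0.05; CPM are TMM-scaled. The fit held only these libraries because the shFXR replicates vary less (common biological coefficient of variation 0.060, against 0.108 in shControl). With 3 against 3 libraries the dispersion was shared across genes. The script was tested on simulated data. Alternatives were DESeq2 1.42.0, limma 3.58.1 with library weights, other scalings and filters, all 12 libraries, the replicate block and each library left out; leaving out the pair of lowest weight was added after seeing the data. The gene lists, the members and the tests were chosen with earlier results of these data known. Of 852 list symbols 851 matched.

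Named genes were 36 always given; the 10 largest rises and falls among called, non-overlapping protein-coding genes of at least 5 CPM outside the p53, mitosis, replication and histone lists; the 6 noncoding rises and falls of smallest adjusted p with at least 1 CPM; up to 4 called members per list and 1 in the other direction, or the 2 of smallest adjusted p where none was called; and the 5 least and 5 most even called genes. Deviations for evenness used log2 CPM with a prior count of 2. Motifs were searched in RefSeq promoters of GRCh38.p14, where SAA1, SAA2 and SLC2A3 had no entry. Some genes that this rule names are not reported here.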

Additional observations from a re-analysis of the deposited data

Results flagged for a closer look

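For 14 of the 36 genes given throughout, the change after radiation differed between the shFXR and the shControl cells by a test of that difference (edgeR over all 12 libraries, 3 per group, adjusted over 16053 genes, of which 15% were called). The test pools the spread of both lines, and the shFXR replicates vary less (common biological coefficient of variation 0.060, against 0.108 in shControl). The adjusted p values can therefore understate the spread of the shControl libraries. The values here are the shFXR log2 change minus the shControl log2 change ± SE. Of the acute phase genes that rose in shControl cells, SAA1 had -1.25 ± 0.24 (adjusted p = 0.00243) and LCN2 had -1.66 ± 0.28 (adjusted p = 0.00118), while SAA2 did not pass (-0.58 ± 0.46, adjusted p = 0.41). FGB, which was not called in shControl cells, had -0.53 ± 0.16 (adjusted p = 0.0338). MKI67, the proliferation marker, had -2.62 ± 0.30 and ANKRD1, the YAP/TEAD target, had -2.73 ± 0.38. HMGCS1 of cholesterol synthesis had -1.04 ± 0.14 and CPT1A of fatty acid oxidation had 0.32 ± 0.10. The cytokine IL11, which fell in shControl cells, had 1.88 ± 0.38. Matrix genes had positive differences: COL4A2 0.68 ± 0.10, LOXL2 0.60 ± 0.15, FN1 0.85 ± 0.22 and VIM 0.85 ± 0.14. The nuclear RNAs NEAT1 and MALAT1, neither called in shControl cells, had 0.97 ± 0.19 and 1.00 ± 0.22. The number of these genes called was 13 with library totals, 15 with DESeq2, 14 with the replicate block and 12 to 15 with 1 shControl library left out.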

How the results depend on the processing

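With 3 libraries a group, the number of calls depended more on which libraries entered than on scaling. The 551 calls (252 higher, 299 lower, 135 at least 2-fold, 24 noncoding) became 553 with RLE size factors, 401 with library totals (160 higher), 1051 without a filter (458, 593 and 53 noncoding), 435 at a mean of at least 5 CPM (61 at least 2-fold, 11 noncoding), 1611 over all 12 libraries (814, 797 and 62 noncoding), 816 by DESeq2 and 2290 by limma with library weights (1086, 1204, 281 and 132). Leaving out 1 library at a time gave 145 to 743 calls, 65 to 336 higher, 80 to 407 lower, 71 to 157 at least 2-fold and 7 to 38 noncoding; without the pair of lowest weight there were 322 (160, 162 and 13 noncoding). The labels used do not say whether replicate numbers pair the libraries, and the correlations do not settle it. Deviations of same-numbered libraries correlated at 0.463, the highest of all pairs, -0.0116 and 0.0930, while irradiated libraries 2 and 3 correlated better with another sham number. A replicate block gave 1254 calls (562, 692 and 52 noncoding). Called acute phase members numbered 10 without a filter, 11 with the block, 11 with library weights and 3 to 10 with a library left out. For cytokines these were 24, 26, 36 and 2 to 16, with 28 over all 12 libraries and 20 by DESeq2. For hypoxia there were 17 with library weights, 2 to 10 with a library left out and 2 without the pair. Matrix members numbered 19 without a filter, 21 over all 12 libraries, 24 with the block, 19 by DESeq2, 40 with library weights and 3 to 18 with a library left out. Lipid members numbered 2 with library totals, then 9, 18, 9, 8, 25 and 0 to 6 in the same order. DESeq2 did not call CA9 (adjusted p = 0.0502), MYBL2 (0.077), CEP55 (0.105) or LINC01669 (0.065). No called gene that is named changed direction under any of these settings. The cause of these shifts was not tested, apart from the fewer libraries or genes that the settings hold by construction. Depth was 17824020 to 19036159 counts and the median level of the long noncoding genes was 1.43 CPM. The part of depth in their calls was not tested.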

Other observations

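Some called genes outside the lists fell into recognisable groups, all put together after their values were seen, so their counts are descriptions. Of 29 standard oxidant defence genes 7 were called higher and 1 lower (edgeR, adjusted p under 0.05), beside 1.64% and 1.94% of all genes, with a median log2 change of 0.15. TXNRD1, thioredoxin reductase, had 0.59 ± 0.12, SRXN1, sulfiredoxin, 0.56 ± 0.14, SLC7A11, the cystine importer, 0.55 ± 0.11, SQSTM1, the autophagy adaptor p62, 0.55 ± 0.12, CAT, catalase, 0.52 ± 0.10, GCLM, of glutathione synthesis, 0.48 ± 0.09, and ABCC2, a conjugate exporter, 0.39 ± 0.09. GPX4, the lipid hydroperoxide peroxidase, had -0.44 ± 0.11, and NQO1 (0.13 ± 0.10) and HMOX1 (0.35 ± 0.15) were not called. The called members each lost their call with at least 1 library left out. Other called genes, picked because they had risen and so no measure of a wider group, are known from squamous and stratified epithelium: KRT4, a mucosal keratin, had 1.86 ± 0.36, LY6D 1.62 ± 0.39, CLCA2 1.52 ± 0.36, the transcription factor GRHL3 1.27 ± 0.29, the elastase inhibitor PI3 0.75 ± 0.13, the desmosomal cadherin DSC3 0.56 ± 0.14 and SFN 0.51 ± 0.13. KRT4, LY6D and CLCA2 were at low level, with means of 1.39, 0.807 and 0.949 CPM over the 6 libraries. PI3 kept its call whichever library was left out. KRT4 kept it in 5 of the 6 cases, GRHL3 in 3, SFN in 2 and LY6D in 1, and CLCA2 and DSC3 kept it in none. The sham and irradiated groups of SFN overlapped.

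Among 8 chromatin and lamina proteins looked up after their values were seen, 6 were called, all lower, beside 1.94% of all genes called lower. Since the 8 were picked with their values known, this count is no measure of chromatin proteins as a group. HMGB2 had -1.25 ± 0.16, LMNB1, lamin B1, -0.94 ± 0.13, the linker histones H1FX and H1F0 -0.86 ± 0.12 and -0.74 ± 0.15, HMGB1 -0.55 ± 0.10 and HMGN2 -0.41 ± 0.10, whereas LMNB2 (-0.19 ± 0.13) and HMGB3 (-0.23 ± 0.10) were not called. HMGB2, LMNB1 and H1FX kept their calls whichever library was left out, and HMGB1, H1F0 and HMGN2 did not. The metallothioneins MT1F and MT1X had -0.92 ± 0.14 and -0.46 ± 0.11, and MT2A was not called (-0.33 ± 0.11, adjusted p = 0.12). MT1X was not called over all 12 libraries (adjusted p = 0.059). Of the NR4A nuclear receptors, NR4A3 had -1.83 ± 0.46 and NR4A2 -1.01 ± 0.21, and NR4A1 was not called (-0.15 ± 0.18). The innate receptors TLR3 and TLR4 had 1.06 ± 0.21 and 0.55 ± 0.12. Of these receptors TLR3 alone kept its call whichever library was left out, while NR4A2, NR4A3 and TLR4 did not.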
